A study of Mus musculus with 16 samples.

Results

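The genes described here are 40 genes of mitosis and the kinetochore, chosen by gene symbol: markers of proliferation, the mitotic cyclins and kinases, the spindle checkpoint, the centromere and kinetochore, and the motors and scaffolds of the spindle and of cytokinesis. They are 40 of the 55146 genes measured and were followed across 4 treatment groups of mouse mammary tumours. All 40 had at least 1 FPKM (a level in fragments, scaled to transcript length in kilobases and to mapped fragments in M, for mega) in at least 4 libraries and were tested. None was listed at 0 in any library, and 24 had at least 1 FPKM in all 16 libraries.

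Most mitotic genes are transcribed in G2 and mitosis and are silent in resting cells, so in a piece of tumour their messenger RNA follows the share of cells that are dividing. Cyclin-dependent kinase 1 with cyclin B starts mitosis, the kinetochore attaches each chromosome to the spindle, and the spindle checkpoint holds back the anaphase-promoting complex until every chromosome is attached. Separase then cuts cohesin, and the central spindle directs cytokinesis. In mammary cancer such genes form the core of proliferation signatures. In bulk tumour RNA, fewer dividing cells and less messenger RNA per cell cannot be told apart.

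RNA was sequenced from 16 breast tumours of genotype MMTV-PyMT, 4 in each group. The tumours had been taken from transgenic donor mice 12 weeks old, in which the MMTV promoter drives the polyoma middle T antigen mainly in mammary epithelium, and had been placed in the mammary fat pad of FVB recipients, which keep their own immune system. For 28 days the recipients received vehicle, anti-PD-L1 (5 mg/kg of antibody, 2 times a week), sonidegib (20 mg/kg, daily) or the combination of both drugs at these doses. The antibody blocks an immune checkpoint ligand, and sonidegib blocks Hedgehog signalling at Smoothened. The study set out to compare gene expression among all 4 groups. The labels name no donor, litter or batch behind a tumour, so the p-values speak only of the spread among these 16 tumours.

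Depth, estimated from the smallest FPKM steps, was about 34.4 to 58.3 M fragments per library, and these figures are approximate. Vehicle replicate 3 stood apart: it had 11361 genes of at least 1 FPKM, against 13107 to 14784 in the other 15 libraries, and its median log2 deviation from the gene means was -0.76. The libraries also differed in how the level of a gene followed the GC content of its transcript. The slope over all genes, in log2 units per 10 percentage points of GC, was 0.45, 0.33, 0.37 and -0.05 in vehicle replicates 1 to 4 and 0.21, -0.32, -0.28 and -0.39 in combination replicates 1 to 4. Vehicle replicate 4 and combination replicate 1 therefore had slopes unlike the rest of their groups. In the anti-PD-L1 libraries the slope was between -0.20 and 0.02, and in the sonidegib libraries between -0.21 and 0.27. All 6 epithelial marker genes were above 0 in every library, with a summed level of 494 to 2071 FPKM with vehicle and 853 to 1710 under the combination.

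Promoters of mitotic genes often carry a cell cycle homology region, whose core is TTTGAA or the related TTTAAA and which is bound by repressor and activator complexes of the cell cycle, together with CCAAT boxes bound by NF-Y. RefSeq promoter windows (GRCm38.p6, from 250 bases before to 50 bases after the start) were at hand for 31 of the 40 genes. The 9 genes without one are Aurkb, Spc24, Kif20a, Incenp, Ska1, Tpx2, Foxm1, Cdc25c and Ccna2. TTTGAA, read on both strands, was present in the windows of 23 genes (74.2%), against 20.2% of the 27025 genes with a window. TTTAAA was present in 10 (32.3%, against 14.9%), and CCAAT in 23 (74.2%, against 41.1%). Either TTTGAA or TTTAAA was present in 27 windows (87.1%, against 30.6%), and 21 windows (67.7%, against 12.2%) held one of them and a CCAAT as well. GGCGGGAA, a form of the E2F site, was present in 0 of 31 windows, against 2.52% of all genes. A match describes these letters and does not show that a factor binds. The 120 bases before the RefSeq start of 5 genes are given below as examples, 3 whose mean levels were above vehicle in every treated group (Top2a, Cdk1 and Kif11) and 2 whose mean levels were lowest under the combination (Cdc20 and Espl1). They run 5′ to 3′ on the coding strand, and capitals mark TTTGAA and CCAAT or their reverse complements TTCAAA and ATTGG. Top2a (chr11:99024190-99024309, minus strand), Cdk1 (chr10:69352913-69353032, minus strand), Kif11 (chr19:37376262-37376381, plus strand), Cdc20 (chr4:118437344-118437463, minus strand) and Espl1 (chr15:102296173-102296292, plus strand) read as follows.
Top2a: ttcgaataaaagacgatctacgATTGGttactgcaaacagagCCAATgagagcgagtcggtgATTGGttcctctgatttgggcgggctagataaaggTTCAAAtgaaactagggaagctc
Cdk1: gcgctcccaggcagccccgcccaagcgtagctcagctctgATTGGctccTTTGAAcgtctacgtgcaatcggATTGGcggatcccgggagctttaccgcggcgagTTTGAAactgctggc
Kif11: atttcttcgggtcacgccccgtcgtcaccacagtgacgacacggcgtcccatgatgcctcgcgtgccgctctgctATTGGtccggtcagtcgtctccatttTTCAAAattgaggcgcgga
Cdc20: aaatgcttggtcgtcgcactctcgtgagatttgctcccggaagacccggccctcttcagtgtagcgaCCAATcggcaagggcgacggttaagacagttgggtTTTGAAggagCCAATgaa
Espl1: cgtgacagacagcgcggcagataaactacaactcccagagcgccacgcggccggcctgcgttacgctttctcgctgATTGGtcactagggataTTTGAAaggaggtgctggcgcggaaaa
The GENCODE M21 annotation starts some transcripts farther upstream, so the last 26 bases of the Cdk1 stretch, 9 of Cdc20 and 27 of Espl1 are exonic there, with the TTTGAA nearest the start of Cdk1 and that of Espl1 among them. Each of the 5 stretches holds a TTTGAA close to the start, the nearest beginning at base -15 in Cdk1 and the farthest at -27 in Espl1, and at least 1 CCAAT. Both kinds of promoter hold these letters.

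With either drug alone, nearly all mitotic genes had higher mean levels than with vehicle, but no single gene passed the test. The median difference over the 40 genes, on the log2(FPKM + 1) scale that understates changes of genes near 1 FPKM, was 0.75 under anti-PD-L1 and 0.73 under sonidegib. The median over all 15105 tested genes was also above 0, at 0.30 and 0.33, so the mitotic genes lay 0.45 and 0.40 above that shift. With each drug 39 of the 40 genes were above vehicle (background 76.1% and 77.8% of all tested genes), and the exception in both was Espl1, which encodes separase and lay above vehicle too without vehicle replicate 1. Limma, with Benjamini-Hochberg adjustment over all tested genes, called 0 of the 40 genes under anti-PD-L1 (background 0% of all genes) and 0 under sonidegib (background 0%). At an unadjusted p under 0.05 there were 25 (62.5%, background 24.6%) and 26 genes (65%, background 27.3%). The 2 comparisons share their vehicle libraries, so they are not independent.

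How many genes passed, and by how much they exceeded the shift of all genes, depended on single vehicle libraries. Vehicle replicate 4 had the highest vehicle level of Mki67, Top2a and Birc5, among others, and without it 26 of 40 genes passed the adjusted threshold under anti-PD-L1 (background 26.2%) and 28 under sonidegib (background 26.5%), 25 of them in both. Examples under anti-PD-L1, then without that library, are Birc5 with a log2 difference of 2.08 ± 0.41 (SE; adjusted p = 0.00684, limma), Top2a with 1.75 ± 0.35 (adjusted p = 0.00684) and Ska3, a kinetochore protein that follows shrinking microtubules, with 1.03 ± 0.22 (adjusted p = 0.00703). Leaving out any of the other 15 libraries gave 0 called genes in both comparisons. Without vehicle replicate 4 the mitotic genes lay 0.61 and 0.56 above the median of all genes, and without vehicle replicate 2 only 0.26 and 0.23. Without vehicle replicate 3, the library with the lowest median deviation over all genes, 36 of 40 genes were above vehicle under anti-PD-L1 and 37 under sonidegib. Their medians were 0.48 and 0.48, against 0.12 and 0.15 for all genes. Median-of-ratios scaling, which takes out the shift of all genes, left 33 and 35 genes above vehicle, at medians of 0.46 and 0.45.

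The genes with the lowest p under anti-PD-L1 were Ska3, Tpx2 and Kif4, all at an adjusted p of 0.158. Ska3 was at 1.06, 0.486, 0.494 and 1.73 FPKM in vehicle replicates 1 to 4 and at 1.91, 2.55, 1.74 and 3.63 in the anti-PD-L1 libraries, a log2 difference of 0.85 ± 0.22 (SE). It was the 1 gene of the 40 whose anti-PD-L1 libraries were all above all vehicle libraries (background 3.39%). With sonidegib the lowest p values belonged to Ska1, Tpx2, which activates Aurora A on the spindle, and the S and G2 cyclin gene Ccna2, all at an adjusted p of 0.127. Ska1, partner of Ska3, was at 0.883, 0.285, 0.172 and 1.21 FPKM with vehicle and at 2.27, 1.38, 1.71 and 1.98 under sonidegib (0.83 ± 0.21). Together with the CDK1 phosphatase gene Cdc25c and the cytokinesis kinesin gene Kif20a it made 3 genes without overlap between these groups (background 6%).

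**Figure D1:**
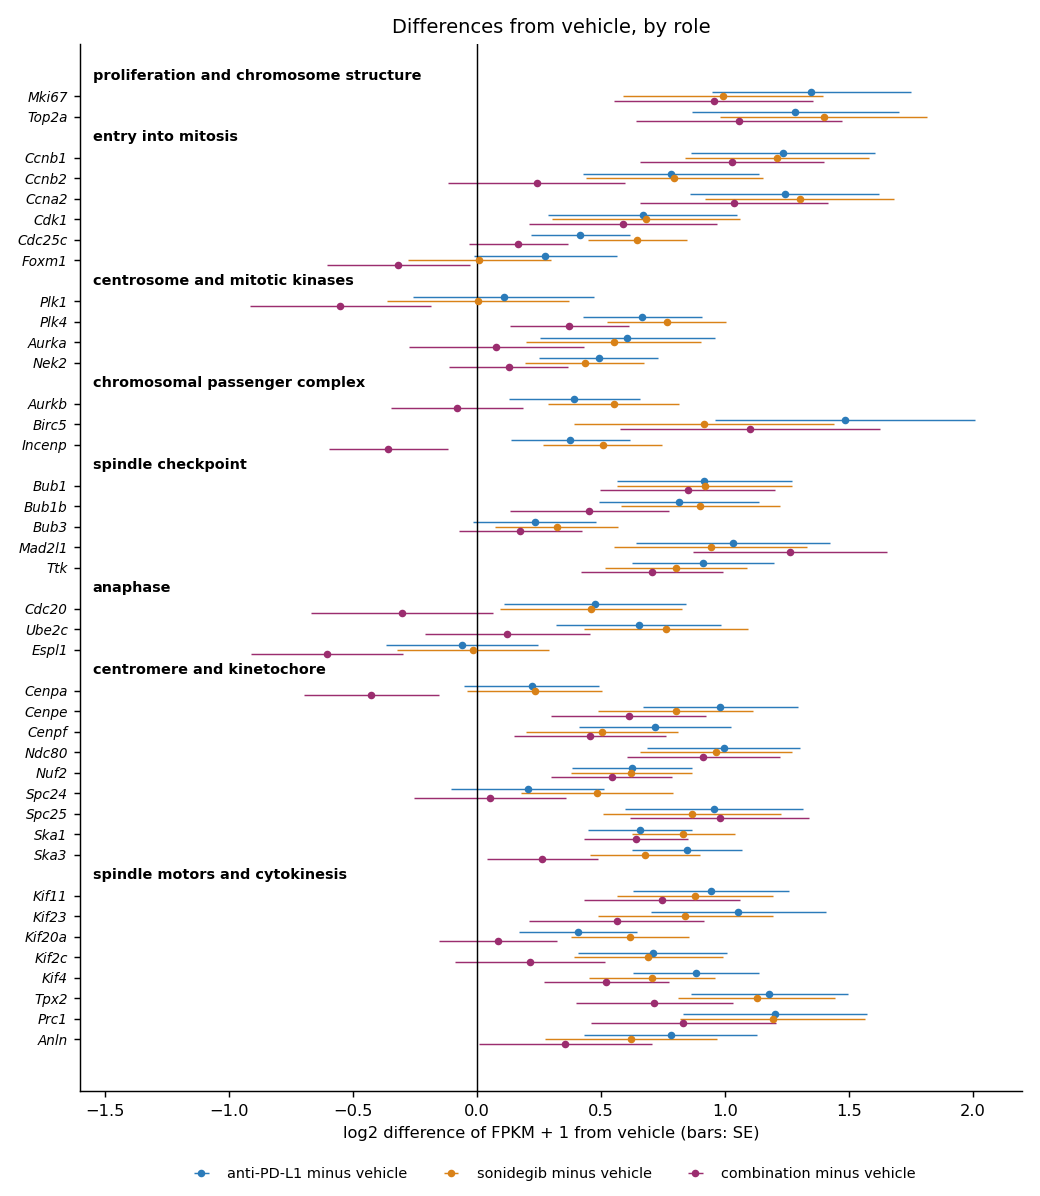
Log2 difference of FPKM + 1 from vehicle (x axis) for each of the 40 genes (y axis, grouped by role), under anti-PD-L1, sonidegib or the combination; points are limma estimates and bars their SE. With either drug alone 39 of 40 points lie above 0, while under the combination 7 lie below 0, among them Espl1, Plk1 and Cenpa.

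With both drugs together fewer of the 40 genes lay above vehicle than with either drug alone. Against vehicle, 33 of the 40 genes were above 0 (background 68.3%) and 7 were below (17.5%, background 31.7%). The share below was thus smaller than among all genes. The 7 were Cdc20, Plk1, Aurkb, Cenpa, Incenp, Espl1 and Foxm1. The median difference was 0.45, against 0.26 for all genes, and without vehicle replicate 2 it was 0.31, against 0.30. Only Mad2l1, a subunit of the checkpoint complex that inhibits Cdc20, rose (1.26 ± 0.39 SE, adjusted p = 0.0456, limma), so 1 of 40 genes was called (2.5%), against 11.3% of all tested genes, 10.3% higher and 0.953% lower. At an unadjusted p under 0.05 there were 14 (35%, background 33.6%), a share near that of all genes. Next came Ska1 (0.64 ± 0.21, adjusted p = 0.0524) and Ndc80 (0.91 ± 0.31, adjusted p = 0.0575). In none of the 40 genes were the combination and vehicle libraries free of overlap (background 3.12% for higher and 1.27% for lower).

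The call of Mad2l1 was not stable: it was past the threshold in 9 of 27 other settings, with adjusted p from 0.00376 to 1.00, and was lost on leaving out vehicle replicate 1, 2 or 3, any anti-PD-L1 library, sonidegib replicate 3 or 4, or combination replicate 2, 3 or 4. Without vehicle replicate 4, 19 genes were called under the combination, all higher (background 33%). Without combination replicate 1, 11 were called, all higher and all among those 19 (background 28.2%): Mki67, Top2a, Ccna2, Bub1, Mad2l1, Ttk, Kif11, Cenpe, Ndc80, Spc25 and Ska1. Without combination replicate 1 the differences of Aurka, Ube2c and Spc24 from vehicle, above 0 as deposited, were -0.17, -0.027 and -0.10. How many genes lay below vehicle also depended on scaling: 7 as deposited, 15 after median-of-ratios scaling, 16 after quantile normalization, 15 without vehicle replicate 3 and 20 of 38 after removal of the GC trend of each library. All genes moved down too: their median was 0.26 as deposited and 0.01 after median-of-ratios scaling. It was -0.03 after quantile normalization and -0.01 after removal of the GC trend. Under median-of-ratios scaling 4 of the 40 genes were called (10%, background 17.2%), Mad2l1, Ndc80, Ska1 and, lower, Incenp.

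The combination tumours had lower mean levels than either single drug for most of the 40 genes, again without a call. Against anti-PD-L1, 38 of 40 genes were below 0 (background 56.3%) and 2 above (background 43.7%), with a median of -0.36 (all genes -0.05), and against sonidegib 37 of 40 (background 60%), with a median of -0.32 (all genes -0.07). Limma called 0 of 40 genes in both (background 0.00662% and 0%). At an unadjusted p under 0.05 there were 4 genes (background 5.78%) and 5 (background 4.28%). These differences use no vehicle library but share the combination libraries. Their SE and p rest on 1 estimate of the spread over all 16 libraries, the vehicle libraries included. The median stayed below 0 in all 27 other settings, at -0.45 to -0.24 against anti-PD-L1 and -0.49 to -0.21 against sonidegib, and after removal of the GC trend it was -0.37 and -0.29. Without combination replicate 1, 33 and 29 of the 40 genes remained below 0.

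Incenp, the scaffold of the chromosomal passenger complex, had the lowest p in both comparisons. It was at 5.57, 4.92, 3.58 and 3.56 FPKM in the combination libraries, at 6.15, 8.66, 6.22 and 11.51 under anti-PD-L1 and at 12.97, 7.80, 8.18 and 6.93 under sonidegib. Every combination library was thus below every single-drug library, with log2 differences of -0.74 ± 0.24 (adjusted p = 0.812) and -0.87 ± 0.24 (adjusted p = 0.959, limma). Next in p were Ska3 (-0.58 ± 0.22) and Cenpa (-0.65 ± 0.27) against anti-PD-L1, and Cenpa (-0.66 ± 0.27) and Cdc25c (-0.48 ± 0.20) against sonidegib. Against anti-PD-L1, 3 genes had no overlap and were lower (Anln, Incenp and Ska3, background 2.48%) and 0 were higher (background 1.36%), and against sonidegib there were 6 (Plk4, Cdc25c, Incenp, Kif20a, Kif2c and Ska3, background 2.44%).

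Whether the effects of the drugs added up was asked with their interaction, the combination minus anti-PD-L1 minus sonidegib plus vehicle, on the log2 scale. It was below 0 for all 40 genes (background 79.5%), with a median of -1.05 against -0.35 for all genes and a range from -1.63 (Top2a) to -0.38 (Bub3). Limma called 0 of 40 (background 0.00662%), with 28 at an unadjusted p under 0.05 (70%, background 9.88%). The lowest p values belonged to Ska3 (-1.26 ± 0.32), Incenp (-1.24 ± 0.34) and Tpx2 (-1.59 ± 0.45), all at an adjusted p of 0.485. All vehicle libraries enter this value, and without vehicle replicate 3 the median was -0.83 (all genes -0.17), without vehicle replicate 4 it was -1.31 (all genes -0.46), each with all 40 genes below 0. With median-of-ratios scaling 39 of 40 were below 0, at a smaller median of -0.73 (all genes 0.04). With the GC trend removed it was 37 of 38, at a median of -0.62 (all genes -0.03). The genes at an unadjusted p under 0.05 (limma) then numbered 20 and 19. Between sonidegib and anti-PD-L1 the median difference was -0.02, 23 of 40 genes were below 0 (background 47.6%) and 17 above (background 52.4%). There, 0 genes were free of overlap (background 2.24% for higher and 0.51% for lower), and limma called 0 genes (background 0%), with 0 at an unadjusted p under 0.05 (background 2.09%). The lowest p there belonged to Cdc25c (0.23 ± 0.20), Birc5 (-0.57 ± 0.52) and Foxm1 (-0.27 ± 0.29).

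Across all 4 groups at once limma called 0 of the 40 genes (background 0.0199%), with 21 at an unadjusted p under 0.05 (52.5%, background 23.7%). Ska1, Ska3 and Tpx2 had the lowest p, at an adjusted p of 0.162. Without vehicle replicate 4 the count was 25 (background 22.2%), and without combination replicate 1 it was 4 (background 12.2%).

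The levels behind these differences follow by role. Over 16 libraries the most abundant of the 40 was Cdk1, at a mean of 27.8 FPKM, then Birc5 at 24.2 and Bub3 at 22.6, and the least abundant were Nek2 at 1.88, Ska3 at 1.68 and Ska1 at 1.37. The median of the 40 genes' group means was 4.01 FPKM with vehicle, 7.62 under anti-PD-L1, 7.35 under sonidegib and 5.48 under the combination.

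Mki67 (chr7:135689784-135716361), which coats mitotic chromosomes and is the standard marker of dividing cells, was at 2.99, 2.95, 1.22 and 8.92 FPKM in vehicle replicates 1 to 4, at 11.2, 16.3, 5.34 and 9.87 under anti-PD-L1, at 12.7, 5.63, 8.98 and 4.99 under sonidegib and at 4.19, 10.02, 8.09 and 8.42 under the combination. Top2a (chr11:98992943-99024189), the topoisomerase that untangles sister chromatids, was at 10.9, 6.46, 3.57 and 26.1 FPKM with vehicle, at 22.7, 28.3, 18.7 and 27.2 under anti-PD-L1, at 41.3, 17.0, 27.6 and 23.3 under sonidegib and at 11.8, 27.2, 20.2 and 25.7 under the combination. In both genes 3 vehicle libraries were below all single-drug libraries and the fourth, vehicle replicate 4, lay among them. The log2 difference of Mki67 from vehicle was 1.35 ± 0.40 under anti-PD-L1, 0.99 ± 0.40 under sonidegib and 0.96 ± 0.40 with both (adjusted p = 0.158, 0.146 and 0.106, limma). For Top2a it was 1.28 ± 0.42, 1.40 ± 0.42 and 1.06 ± 0.42 (adjusted p = 0.158, 0.127 and 0.0886).

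Entry into mitosis is driven by Cdk1 with the B cyclins. Ccnb1 (chr13:100778650-100786570) had 8.89, 3.70, 1.88 and 12.9 FPKM with vehicle, 10.9, 18.1, 11.6 and 18.7 under anti-PD-L1, 17.6, 13.95, 14.01 and 11.7 under sonidegib and 11.2, 17.1, 9.08 and 13.4 under the combination. Its means of 14.8 ± 4.14 (SD, n = 4), 14.3 ± 2.44 and 12.7 ± 3.45 FPKM compare with 6.83 ± 5.00 with vehicle, and the log2 differences were 1.23 ± 0.37, 1.21 ± 0.37 and 1.03 ± 0.37 (SE; adjusted p = 0.158, 0.127 and 0.0681). Cdk1 itself (chr10:69335146-69352938) was at 29.8, 14.5, 7.04 and 34.8 FPKM with vehicle, at 24.1, 32.2, 27.4 and 36.1 under anti-PD-L1, at 30.4, 33.96, 28.1 and 27.6 under sonidegib and at 29.3, 41.5, 15.4 and 32.3 under the combination. Here vehicle replicates 1 and 4 were as high as treated libraries, and the differences of 0.67, 0.68 and 0.59 had an SE of 0.38. Ccna2 resembled Ccnb1 (1.24, 1.30 and 1.04), while Ccnb2 was at 0.78 and 0.80 with the single drugs and 0.24 with both.

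Foxm1 (chr6:128362967-128376146), the transcription factor that drives many genes of G2 and mitosis, was at 6.04, 3.78, 1.91 and 3.73 FPKM with vehicle, at 3.76, 5.52, 3.87 and 5.56 under anti-PD-L1, at 3.25, 5.47, 4.17 and 2.34 under sonidegib and at 4.97, 2.26, 2.66 and 1.68 under the combination. The groups overlapped, and the log2 differences from vehicle were 0.27, 0.01 and -0.32, each with an SE of 0.29.

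Among the kinases of the centrosome and spindle, Plk1 (chr7:122159439-122169873), which acts from mitotic entry to cytokinesis, was at 12.0, 6.60, 3.71 and 6.63 FPKM with vehicle, at 4.63, 7.43, 6.04 and 13.3 under anti-PD-L1, at 6.28, 11.8, 4.92 and 5.44 under sonidegib and at 8.59, 4.81, 2.61 and 2.82 under the combination. Aurka (chr2:172356190-172370535), the kinase of spindle poles, was at 11.7, 3.59, 2.57 and 8.13 FPKM with vehicle, at 6.73, 9.61, 8.25 and 12.5 under anti-PD-L1, at 9.10, 12.2, 7.26 and 6.97 under sonidegib and at 10.7, 5.93, 4.67 and 4.13 under the combination. In both genes combination replicate 1 was the highest of its group, and the other 3 combination libraries were below all sonidegib libraries. The differences from vehicle were 0.11, 0.00 and -0.55 for Plk1 (SE 0.37) and 0.61, 0.55 and 0.08 for Aurka (SE 0.35). Plk4, which starts centriole duplication, and Nek2, which separates centrosomes, were at 0.67 and 0.49 under anti-PD-L1, 0.76 and 0.43 under sonidegib and 0.37 and 0.13 under the combination.

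The chromosomal passenger complex corrects wrong attachments. Its kinase Aurkb (chr11:69045647-69051664) was at 8.39, 3.67, 4.35 and 9.67 FPKM with vehicle, at 7.12, 8.94, 7.90 and 9.33 under anti-PD-L1, at 10.96, 9.95, 8.99 and 7.80 under sonidegib and at 8.71, 5.81, 4.69 and 4.30 under the combination. Survivin, encoded by Birc5 (chr11:117849251-117855743), was at 18.05, 4.81, 3.28 and 40.03 FPKM with vehicle, at 44.8, 25.7, 38.7 and 23.4 under anti-PD-L1, at 24.8, 20.6, 19.2 and 20.998 under sonidegib and at 31.2, 17.7, 16.5 and 37.9 under the combination. Birc5 differed widely between vehicle libraries, with an SD of 17.0 around a mean of 16.5 FPKM. The log2 differences from vehicle under anti-PD-L1, sonidegib and both were 1.48, 0.92 and 1.10 for Birc5 (SE 0.52), 0.39, 0.55 and -0.08 for Aurkb (SE 0.27) and 0.38, 0.51 and -0.36 for Incenp (SE 0.24). Whether the 3 genes differ from each other was not tested.

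**Figure D2:**
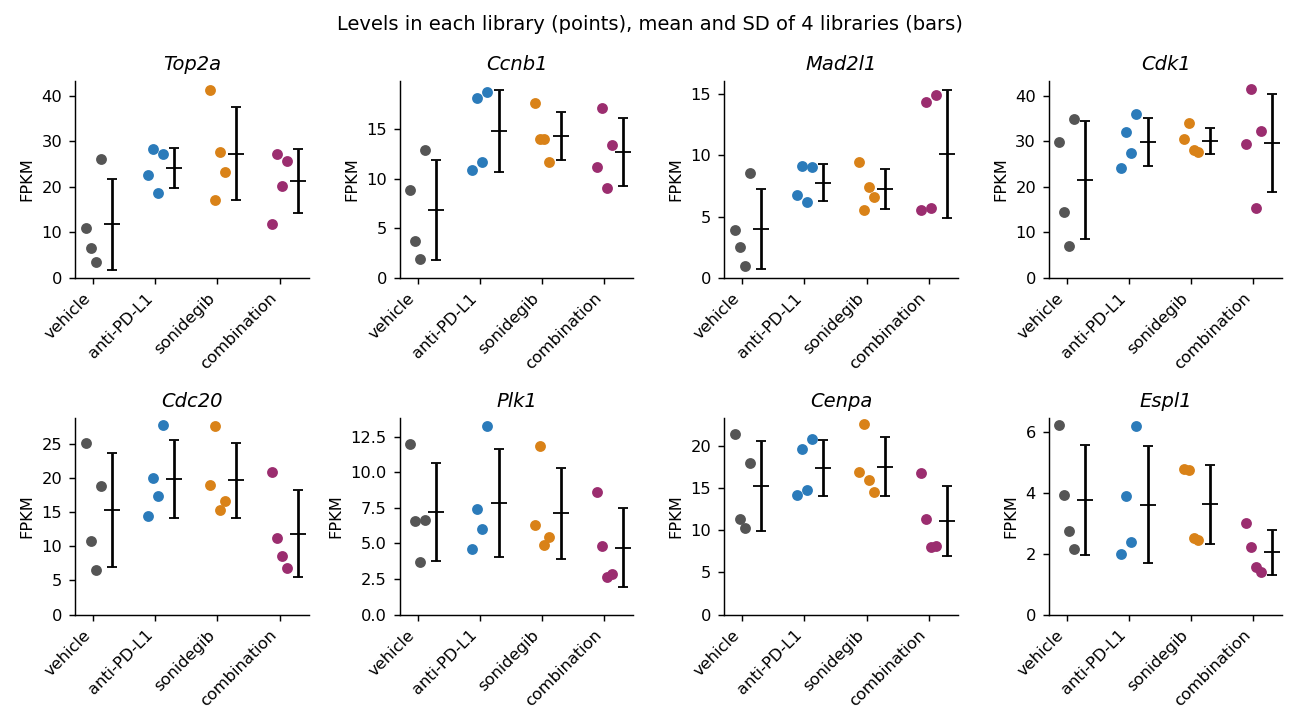
FPKM (y axis, from 0) of 8 mitotic genes in each library (points) of the 4 groups (x axis), with the mean and SD of 4 libraries beside them. Mad2l1 has 2 combination libraries at 14.4 and 14.9 and 2 at 5.50 and 5.71, and in Cdc20, Plk1 and Espl1 the lowest combination libraries lie below all single-drug libraries.

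The 5 spindle checkpoint genes had mean levels above vehicle in all 3 treated groups as deposited, and with quantile normalization or median-of-ratios scaling Bub3 lay below vehicle in each. Mad2l1 (chr6:66535390-66547220) was at 3.93, 2.52, 0.94 and 8.59 FPKM with vehicle, at 6.74, 9.11, 6.17 and 9.03 under anti-PD-L1, at 9.44, 5.56, 7.43 and 6.61 under sonidegib and at 5.50, 14.4, 5.71 and 14.9 under the combination. Its combination libraries fell into a high and a low pair, and the low pair lay below vehicle replicate 4. Bub1b (chr2:118598211-118641591), which encodes the checkpoint protein BubR1, was at 6.43, 2.47, 1.78 and 7.06 FPKM with vehicle, at 6.69, 8.18, 5.97 and 10.2 under anti-PD-L1, at 12.4, 8.70, 7.26 and 5.53 under sonidegib and at 6.25, 7.76, 4.59 and 4.72 under the combination. Bub3 (chr7:131560222-131571895), which carries Bub1 and BubR1 to kinetochores, was at 27.6, 17.8, 11.2 and 25.4 FPKM with vehicle, at 22.3, 20.5, 23.7 and 25.6 under anti-PD-L1, at 25.6, 28.4, 21.03 and 23.5 under sonidegib and at 25.9, 22.8, 21.2 and 18.8 under the combination. Its differences of 0.23, 0.32 and 0.18 (SE 0.25) were below the shift of all genes. Bub1 and the checkpoint kinase gene Ttk were at 0.92 and 0.91 under anti-PD-L1, 0.92 and 0.80 under sonidegib and 0.85 and 0.71 under the combination.

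Genes of anaphase had the lowest median of the 8 roles against vehicle under the combination, at -0.30. This role holds 3 genes, and its median is the value of Cdc20. Their transcript GC was high, at 55.6% for Cdc20, 55.5% for Ube2c and 56.1% for Espl1. All genes of 52 to 56% GC had a median of -0.005 under the combination, and those of 56 to 60% GC -0.14. Cdc20 (chr4:118432901-118437352), the activator of the anaphase-promoting complex and the target of Mad2, was at 25.2, 10.8, 6.54 and 18.8 FPKM with vehicle, at 14.5, 20.0, 17.4 and 27.7 under anti-PD-L1, at 18.9, 27.6, 15.3 and 16.7 under sonidegib and at 20.9, 11.3, 8.52 and 6.76 under the combination. Ube2c (chr2:164769898-164778822), which brings ubiquitin to that complex, was at 21.2, 9.54, 6.84 and 24.7 FPKM with vehicle, at 18.1, 26.7, 20.97 and 23.7 under anti-PD-L1, at 31.3, 28.2, 18.6 and 20.2 under sonidegib and at 20.9, 17.1, 11.2 and 12.8 under the combination. Espl1 (chr15:102296266-102324357), separase, was at 6.21, 3.92, 2.75 and 2.14 FPKM with vehicle, at 1.97, 3.88, 2.38 and 6.19 under anti-PD-L1, at 4.76, 4.72, 2.50 and 2.45 under sonidegib and at 3.01, 2.204, 1.56 and 1.38 under the combination. In each of the 3 genes combination replicates 3 and 4 were below all 8 single-drug libraries. The combination differed from vehicle by -0.30 ± 0.37 for Cdc20, 0.12 ± 0.33 for Ube2c and -0.60 ± 0.31 for Espl1 (adjusted p = 0.59, 0.824 and 0.174, limma), and from anti-PD-L1 by -0.78, -0.53 and -0.54 (adjusted p = 0.837, 0.843 and 0.837).

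At the centromere, Cenpa (chr5:30666777-30674830), the histone H3 variant that marks where the kinetochore forms, was at 21.4, 11.4, 10.3 and 17.97 FPKM with vehicle, at 14.2, 19.7, 14.8 and 20.9 under anti-PD-L1, at 17.0, 22.6, 16.05 and 14.6 under sonidegib and at 16.9, 11.3, 8.01 and 8.16 under the combination. Its difference from vehicle under the combination was -0.43 ± 0.27 (adjusted p = 0.28), with 3 of 4 combination libraries below all single-drug libraries. The microtubule-binding Ndc80 complex has 4 subunits. Ndc80 (chr17:71496100-71526857) was at 0.988, 0.641, 0.241 and 2.81 FPKM with vehicle, at 3.00, 3.77, 2.19 and 3.00 under anti-PD-L1, at 4.87, 1.83, 2.70 and 2.62 under sonidegib and at 1.44, 3.497, 2.72 and 3.74 under the combination. Spc24 (chr9:21755442-21760303) was at 10.4, 4.20, 2.71 and 6.86 FPKM with vehicle, at 5.01, 6.99, 5.13 and 9.30 under anti-PD-L1, at 8.11, 10.1, 7.09 and 7.06 under sonidegib and at 8.29, 6.87, 3.84 and 4.66 under the combination. Against vehicle the combination differed by 0.91 for Ndc80, 0.54 for Nuf2 and 0.98 for Spc25, and by 0.05 for Spc24 (not tested between the genes). Transcript GC was 42.4%, 41.7% and 42.6% in the first 3 and 52.9% in Spc24. The kinesin gene Cenpe and the outer kinetochore gene Cenpf were at 0.98 and 0.72 under anti-PD-L1, 0.80 and 0.50 under sonidegib and 0.61 and 0.46 under the combination.

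Of the spindle motors, Kif11, the kinesin that pushes spindle poles apart, was at 1.12, 0.923, 0.373 and 2.88 FPKM with vehicle, at 3.35, 4.07, 2.11 and 3.31 under anti-PD-L1, at 5.73, 2.00, 3.07 and 2.00 under sonidegib and at 1.51, 4.05, 2.36 and 3.01 under the combination. Its differences were 0.94, 0.88 and 0.75 (SE 0.31). All 8 genes of spindle motors and cytokinesis were above vehicle in the 3 treated groups, with medians of 0.91, 0.77 and 0.54. Under the combination they ran from 0.08 for Kif20a to 0.83 for Prc1, which bundles the microtubules of the central spindle, and Kif20a was below 0 with both other scalings and Kif2c with quantile normalization.

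**Figure D3:**
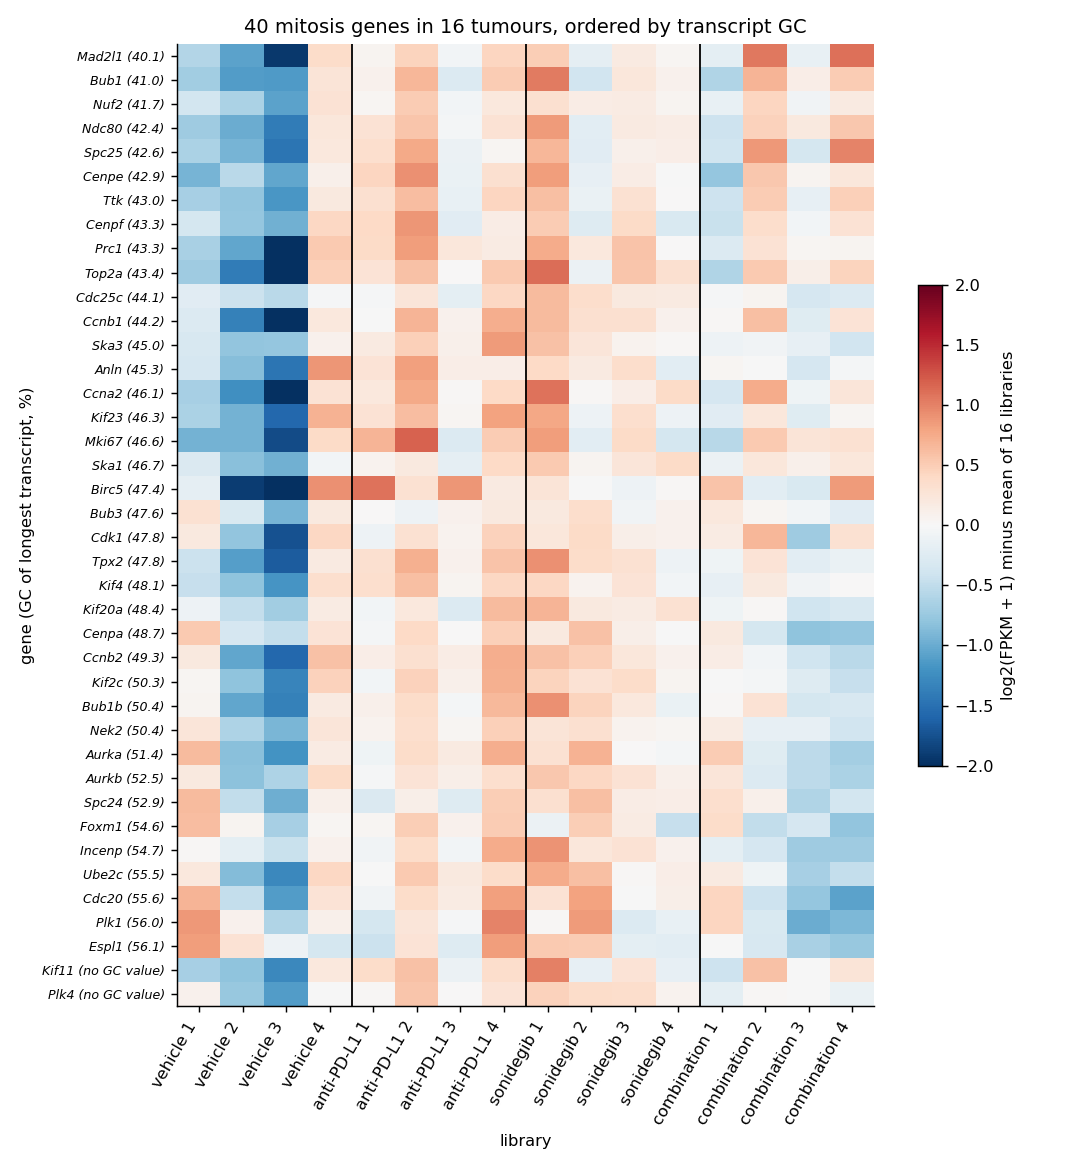
Log2(FPKM + 1) minus the gene's mean over 16 libraries (colour, red higher and blue lower) for the 40 genes (rows, ordered by transcript GC, value in brackets) in the 16 libraries (columns, by group). Vehicle replicates 2 and 3 are low in most rows and vehicle replicate 4 is not. In combination replicates 3 and 4 the rows of high GC are low, and in combination replicate 4 several rows at the top are high. Kif11 and Plk4, without a GC value, are placed last.

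The differences from vehicle under the combination followed transcript GC. Of the 40 genes, 38 had a GC value (longest transcript, GENCODE M21), from 40.1% for Mad2l1 to 56.1% for Espl1, with a median of 47.5% against 49.3% for all genes. Kif11 and Plk4 had none. Across the 38 genes Pearson's r between GC and the difference from vehicle was -0.80 under the combination, -0.63 under anti-PD-L1 and -0.62 under sonidegib, and over 14893 genes with a GC value it was -0.49, -0.50 and -0.37. These are descriptions: all points of 1 comparison come from the same 8 libraries. With GC bounds chosen after the values were seen, the 18 mitotic genes under 47% GC had a median difference of 0.77 under the combination, all 18 above 0, while all genes of that GC had a median of 0.60. The 12 over 50% GC had a median of -0.01, with 6 below 0, and all genes of that GC -0.03. With anti-PD-L1 the medians of the same 18 and 12 genes were 0.97 and 0.43, against 0.57 and 0.06 for all genes of that GC, and under sonidegib 0.85 and 0.50, against 0.53 and 0.14. With either drug alone the medians of the mitotic genes thus lay above those of other genes of like GC. Under the combination the medians lay closer to them. After removal of each library's GC trend the median over the 38 genes was 0.37 under anti-PD-L1, 0.33 under sonidegib and -0.02 under the combination (all genes 0.01, 0.01 and -0.01), with no call, and the part of GC in these differences was not tested further. Single genes departed from that under the combination. Cenpa, at 48.7% GC, lay at -0.43, against a median of 0.23 for all genes of 48 to 52% GC. Plk1 (-0.55), Incenp (-0.36), Foxm1 (-0.32), Cdc20 (-0.30) and Aurkb (-0.08) were below the -0.005 of all genes of 52 to 56% GC. Ube2c (0.12) and Spc24 (0.05), also of that GC, were above it. Espl1 was at -0.60, against -0.14 for all genes of 56 to 60% GC.

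**Figure D4:**
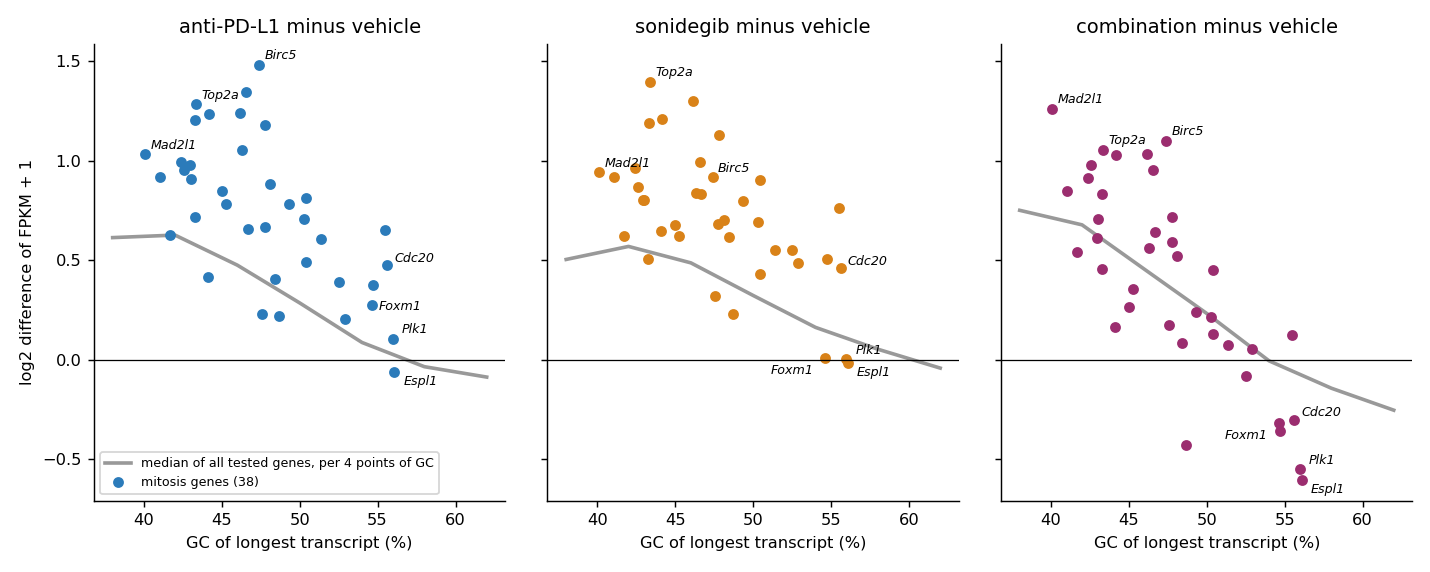
Log2 difference of FPKM + 1 from vehicle (y axis) against the GC of the longest transcript (x axis, %) for 38 mitotic genes (points), with the median of all tested genes in steps of 4 points of GC (grey line), for each treated group. Most points lie above the line with either drug alone, while under the combination they scatter around it.

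**Figure D5:**
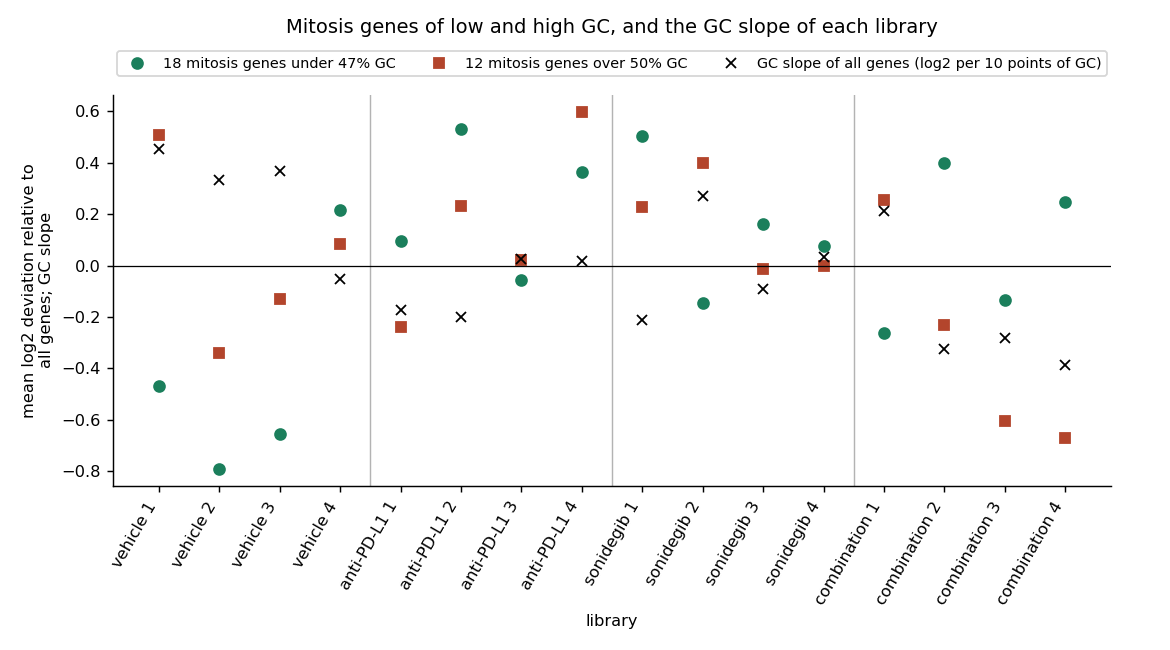
Mean log2 deviation, relative to the median of all tested genes, of the 18 mitotic genes under 47% GC (circles) and the 12 over 50% GC (squares), with the GC slope of all genes (crosses, log2 per 10 points of GC), in each of 16 libraries (x axis). In combination replicates 2 to 4 the circles lie above the squares, and below them in vehicle replicates 1 to 3 and combination replicate 1, among others.

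Taking all 40 genes as 1 score per library, the mean log2 deviation relative to the median of all genes, vehicle replicates 1 to 4 were at -0.05, -0.63, -0.47 and 0.18. The anti-PD-L1 libraries were at -0.01, 0.38, 0.01 and 0.44, the sonidegib libraries at 0.37, 0.09, 0.08 and 0.05, and the combination libraries at -0.02, 0.13, -0.33 and -0.12. Vehicle replicate 4 had a higher score than every combination library, and every pair of groups overlapped. With the GC trend removed the group means were -0.17 ± 0.35 (SD, n = 4) with vehicle, 0.19 ± 0.25 under anti-PD-L1, 0.14 ± 0.13 under sonidegib and -0.13 ± 0.21 under the combination. Scores of the low-GC and high-GC genes parted within libraries: they were -0.47 and 0.51 in vehicle replicate 1, and 0.25 and -0.67 in combination replicate 4. Between 2 genes of the 40, Pearson's r over the 16 libraries (each centred on its median) had a median of 0.53 over 780 pairs, and 84.0% were above 0. Within the 18 low-GC genes the median r was 0.77, within the 12 high-GC genes 0.73, and between these sets 0.13. The highest was 0.96, between Ccnb2 and Kif2c, and the lowest -0.59, between Spc25 and Foxm1. Group, depth and GC slope are shared by all pairs, and these values carry no test.

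The wider pathway was read from 77 other mitosis genes, all of which were tested. Their median difference from vehicle was 0.64 under anti-PD-L1, 0.66 under sonidegib and 0.53 under the combination (all genes 0.30, 0.33 and 0.26). Above 0 were 75, 73 and 62 of them (background 76.1%, 77.8% and 68.3%). Limma called 0 of them with either single drug (background 0%). Under the combination it called 13, all higher (background 10.3% for higher). By size the first were the SKA complex gene Ska2 (1.42 ± 0.34, adjusted p = 0.0342), the securin gene Pttg1 (1.33 ± 0.38, adjusted p = 0.0382) and the condensin II gene Ncapg2 (1.31 ± 0.40, adjusted p = 0.0438). Ska2 was at 0.644, 0.654, 0.3 and 1.48 FPKM with vehicle and at 1.14, 5.31, 3.27 and 6.72 under the combination. Ncapg2 was listed at 0 in vehicle replicate 1, where its neighbours in the pathway were not. The others were Cdkn3, Cks2, Knstrn, Mis12, Cenpc1, Cenph, Cenpk, Cenpp, Cenpq and Cenpu, and all 13 had under 47% GC. Against anti-PD-L1 and sonidegib the combination had medians of -0.20 and -0.18 over the 77 genes (all genes -0.05 and -0.07). There were 0 calls (background 0.00662% and 0%).

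Regulators of mitotic transcription had 20 of 21 genes tested, and 3 rose under the combination (Nfyb, E2f5 and Lin9; background 10.3%), none fell (background 0.953%), and 0 were called with a single drug. Their median under the combination was 0.29, near the 0.26 of all genes. Nfyb, a subunit of the CCAAT-binding NF-Y, was at 2.28, 2.19, 0.669 and 5.83 FPKM with vehicle and at 3.68, 10.3, 6.56 and 9.98 under the combination (1.30 ± 0.35, adjusted p = 0.0365). Mybl2, which encodes B-Myb, the activator at the cell cycle homology region, was at 3.52, 1.66, 1.15 and 2.32 FPKM with vehicle and at 2.55, 1.08, 0.921 and 0.689 under the combination (adjusted p = 0.203). Of 10 CDK inhibitors and quiescence genes 0 were called in any comparison (background 11.3% for the combination against vehicle and at most 0.0199% elsewhere). Of 27 replication genes, which belong to the S phase before mitosis, 6 rose under the combination (Rfc4, Gins1, Orc6, Rrm1, Pola1 and Rfc3; background 10.3%), none fell (background 0.953%), and 0 were called with a single drug. Their median under the combination was 0.32, against 0.26 for all genes, and Rfc4, a subunit of the clamp loader, was the first by size (1.54 ± 0.37, adjusted p = 0.0342).

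Markers of other cells were not tested between the groups, and their sums are given as ranges. The summed level of 6 T cell markers was 1.05 to 2.57 FPKM with vehicle, 3.00 to 5.30 under anti-PD-L1, 1.32 to 4.33 under sonidegib and 1.91 to 13.2 under the combination, lowest in combination replicate 1, and all 6 were above 0 in every library. The sum of 6 macrophage markers was 128 to 174 FPKM with vehicle, 105 to 175 under anti-PD-L1, 127 to 192 under sonidegib and 178 to 260 under the combination, and that of 6 fibroblast markers was 104 to 167, 110 to 272, 131 to 232 and 161 to 256. Single markers did not all follow the sums. Cd4 of the T cells was at 0.342 to 0.784 FPKM with vehicle and 0.320 to 0.873 under the combination. Csf1r of the macrophages was at 16.4 to 30.8 FPKM with vehicle and 16.3 to 20.0 under the combination, and Col1a1 of the fibroblasts at 30.6 to 53.1 and 25.1 to 40.5. The sum of 4 adipocyte markers was 0.581 to 3.14 FPKM with vehicle, 1.91 to 11.8 under anti-PD-L1, 2.27 to 6.66 under sonidegib and 5.91 to 38.5 under the combination, highest in combination replicate 1. Fabp4 made up most of that sum in every library. Adipoq was at 0.877, 0, 0 and 0.202 FPKM with vehicle and at 7.60, 0.125, 0.564 and 0.475 in combination replicates 1 to 4. The sum of 3 skeletal muscle markers ran from 0.381 to 84.4 FPKM with vehicle and from 0.0349 to 80.2 under the combination, and was highest in anti-PD-L1 replicate 2, at 161 FPKM. The part of such cells in the levels of the mitotic genes was not tested.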

How the data were processed

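Levels are FPKM as the authors deposited them, with 1 column per library, assigned through the S number that column names and library descriptions share. Per the submitters' processing notes, TopHat and Cufflinks were used with GRCm38.p6 and mm10; tool versions and gene models were not given in the sources used here. The labels describe stranded libraries without ribosomal RNA but list polyadenylated RNA as molecule. Because the S numbers follow the order of the groups, library order and treatment cannot be told apart. FPKM divides out length and mapped fragments, so a few abundant transcripts can shift all others, and whole fragments could not be recovered from it. Depth was estimated from the FPKM step in 4908 genes with 1 transcript of over 2000 bp, less 200 bp for the fragment.

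The test took 15105 genes that reached 1 FPKM in 4 or more libraries, as log2(FPKM + 1). Limma 3.58.1 (R 4.3.3) fitted 1 mean per group over 16 libraries with intensity trend and robust variance, two-sided, with Benjamini-Hochberg adjustment over all tested genes in each comparison and a threshold of 0.05. The fit was tested on simulated data. GC and coordinates are from GENCODE M21 (GRCm38), which 53913 identifiers matched with version and 54468 without, and those of Kif11 and Plk4 did not. The genes, lists, roles and the 19 genes given in every library were chosen with earlier results of these data known. Genes past the threshold, or the 3 of lowest p where under 5 passed, were named too, and from other lists 2 to 4 by size. Cdt1 and Gins2 were not analysed here, and 1 other replication gene is not reported here and was left out of its list. Other settings were quantile normalization, median-of-ratios scaling, a pseudocount of 0.1, other filters, plain limma, GC and length corrections, a replicate block, only the groups compared and each library left out. The GC slope of each library as a covariate was added after seeing the data.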

Additional observations from a re-analysis of the deposited data

Results flagged for a closer look

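Among the 4 sonidegib libraries, replicate 1 had a mitosis score of 0.37, while the other 3 lay between 0.05 and 0.09, a gap beyond Dixon's 95% limit for 4 values. Top2a, Mki67 and Ccna2 were highest of that group in this library. It was 1 of 164 groups of values checked, of which chance alone would pick about 5%. No interaction of the drugs passed the threshold for any of the 40 genes.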

How the results depend on the processing

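The count of called genes with the combination against vehicle was 1 as reported (background 11.3%). It became 2 after quantile normalization (background 17.4%), 4 after scaling by median of ratios (background 17.2%) and 3 when the pseudocount was 0.1 (background 11.8%). It was 0 with no filter, with limma without trend or robust variance, and with only the groups compared in the fit. It was also 0 with the GC trend removed (background 4.02%) and with GC and length trends removed (background 0.134%). With the GC slope as a covariate (added after seeing the data) it was 0 too (background 0%). Leaving out 1 library gave 0 to 19 called genes there, 0 to 25 across the 4 groups, 0 to 26 with anti-PD-L1 and 0 to 28 with sonidegib, the highest always without vehicle replicate 4. Without that library the background was 33%, 22.2%, 26.2% and 26.5% in these 4 comparisons. In the other comparisons each setting gave 0. There, without combination replicate 1, the background was 1.43% for the combination against anti-PD-L1 and 0.777% against sonidegib. Differences from vehicle changed sign in at least 1 setting for 8 of the 40 genes under anti-PD-L1, 6 under sonidegib and 24 under the combination, and none of these turned values passed the threshold (lowest adjusted p 0.167). With the GC slope as a covariate, those under the combination included Top2a at -0.071, Cdc20 at 0.24, Plk1 at 0.21 and Foxm1 at 0.16, and the cause was not tested. The replicate block called 1 gene with the combination against vehicle (background 7.79%) and 0 elsewhere (background 0%), the same counts of the 40 genes as without it. The numbers did not pair the libraries: 3 of 16 libraries correlated best with their own number. For the single genes and the medians, 1216 values kept their direction and side of the threshold, 4 reversed, 25 became significant, 18 ceased to be, and 27 medians moved by more than their spread. Depth is known only roughly, so genes near 1 FPKM such as Ska1 carry an unknown counting error.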
